A study of Danio rerio with 3 samples.

Results

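UV cones are the cone photoreceptors of the zebrafish retina that use the short-wavelength opsin opn1sw1. They were taken from single-cell RNA sequencing of adult retina in a rod degeneration model and in wild type (WT) fish. A barcode counted as a UV cone when it had at least 200 genes, when the cone genes gnat2, pde6c, arr3a, arr3b, grk7a and gngt2b together gave at least 10 UMIs and at least 1% of its UMIs, and when the rod transducin gene gnat1 stayed under 1%. It also needed at least 5 opsin UMIs, of which opn1sw1 made up at least 60%. A UMI (unique molecular identifier) counts a captured transcript once. This gave 277 UV cones among 29461 barcodes with at least 200 genes: 38 of 15547 in the P23H V3 library and 239 of 13914 in the WT V3 library.

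The P23H V3 and P23H V2 libraries came from the transgenic line uth4Tg, which carries mouse rhodopsin with the P23H mutation of retinitis pigmentosa under the zebrafish rho promoter, so that the mutant protein is made in rods. The WT V3 library came from AB fish. Each library pooled the retinas of 3 adult fish, and V2 and V3 name the 10x chemistry. By the labels the fish were 4 to 8 months old and the lights had been on for 2 to 4 h, and the study's methods give other ranges for both. P23H thus had 1 library of each chemistry and WT had 1 V3 library, with no WT V2 library analysed here. No test between P23H and WT could be made, and where P23H V2 is set beside WT V3, genotype and chemistry cannot be told apart.

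Cones turn light into an electrical signal through an opsin that activates the G protein transducin. Transducin relieves the inhibition of phosphodiesterase 6, cyclic GMP falls, and cyclic nucleotide-gated channels close. Kinases and arrestins switch the opsin off, and guanylate cyclases with their calcium-binding activators restore cyclic GMP. Zebrafish have UV, blue, green and red cones arranged in a mosaic. The UV cones are short single cones, need the T-box factor tbx2b to form, and are known for their part in prey detection by larvae. Arrestin arr3b belongs to UV and blue cones and arr3a to green and red cones.

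The V3 libraries held 31429971 UMIs in P23H and 32916412 UMIs in WT, and the summed UMIs of the UV cones were 101286 in P23H V3, 504023 in WT V3 and 24217 in P23H V2. The median UV cone had 2302 UMIs in P23H V3 and 1072 UMIs in WT V3. The V3 libraries shared 64 barcodes, of which 0 were UV cones. Photoreceptor transcripts in other barcodes differed between the libraries, and whether they were RNA free in the cell suspension was not tested. Among barcodes of at least 200 genes outside the cones and rods, opn1sw1 was at 34.8 CPM (the usual CPM scale, a gene's UMIs over all summed UMIs) in P23H V3 and 322 CPM in WT V3, with a UMI in 5.00% and 39.9% of barcodes at median depths of 1186 and 1366 UMIs, and rho was at 2161 and 8462 CPM.

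UV cones were rarer among the barcodes of P23H V3 than of WT V3. Their share was 0.244% (exact 95% interval 0.173 to 0.335%) in P23H V3 and 1.72% (1.51 to 1.95%) in WT V3, and it was 0.686% (0.469 to 0.967%) in P23H V2. Of all barcodes typed as 1 of the 4 cone types by the same limits, UV cones were 5.71% in P23H V3, 19.4% in P23H V2 and 16.1% in WT V3. The P23H libraries differ from each other, so the order against WT depends on the library and the denominator. Green cones numbered 224 in P23H V3 and 341 in WT V3, and red cones 403 and 852. No blue cone was found in P23H V3, which allows a share of up to 0.0193% of barcodes (3 counts), whereas WT V3 had 55. All intervals here and below cover counting error only, and 1 pool of fish per library gives no spread between animals.

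The label UV cone held for part of the barcodes chosen. In 26 of 38 P23H and 87 of 239 WT members the 6 cone genes reached 3% and opn1sw1 reached 1% of UMIs, limits that were set after the data had been seen. In these barcodes, called restricted UV cones below, arr3b made up 92.1% of the arrestin-3 UMIs in P23H V3 and 91.3% in WT V3. Both arrestins are among the 6 genes of the rule, so this is a description. In a further 10 P23H members (26.3%) and 114 WT members (47.7%) the cone genes stayed under 3%, and arr3b was only 62.3% and 37.6% of the arrestin-3 UMIs. In these low-cone members the bipolar cell markers summed to 35667 CPM (P23H) and 17279 CPM (WT), against 767 and 596 CPM in the restricted UV cones. Their rod markers, of which rho is the most abundant, summed to 1669 CPM (P23H) and 21933 CPM (WT). In the restricted UV cones the rod markers summed to 10813 CPM (P23H) and 4473 CPM (WT). By these sums, which include gnat1 of the rule, rod markers were higher in the low-cone members only in WT. In P23H, single restricted UV cones held 406 and 158 of that group's 615 rho UMIs. By the median member, rod markers were higher in the low-cone members of both libraries. The medians were 1650 against 1060 CPM in P23H and 20153 against 4011 CPM in WT. The last 2 P23H and 38 WT members had cone genes at 3% or more with opn1sw1 under 1%. Their arr3b share was 18.3% in P23H and 91.2% in WT, so in WT it did not separate them from the restricted UV cones. In WT these held 47 of the 57 foxq2 UMIs of all WT members, at 413 CPM. The factor foxq2 is required for blue cones in zebrafish.

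**Figure D1:**
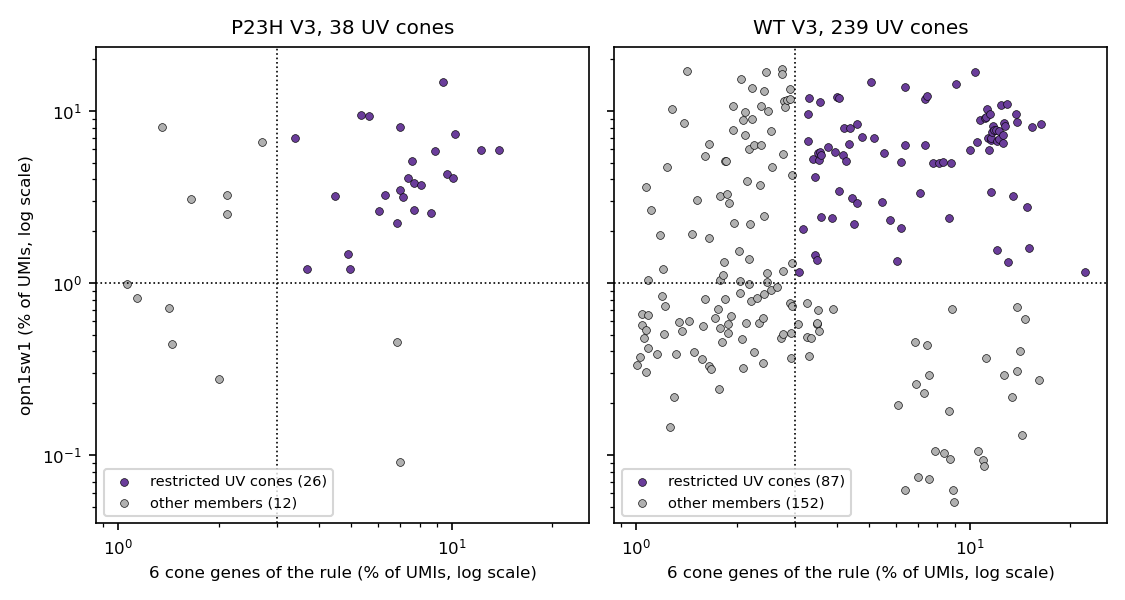
Each point is a UV cone of P23H V3 (left) or WT V3 (right), by the share of its UMIs on the 6 cone genes of the rule (x axis, %, log scale) and on opn1sw1 (y axis, %, log scale). Purple points are the 26 P23H and 87 WT restricted UV cones at 3% and 1% or more (dotted lines), and the 12 P23H and 152 WT grey points fall below a line.

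The shares of the restricted UV cones were 0.167% of barcodes in P23H V3 (0.109 to 0.245%) and 0.625% in WT V3 (0.501 to 0.771%). Of cones with cone genes at 3% or more they were 4.30% and 8.88%. In that count UV cones alone also had to reach the opn1sw1 limit. In P23H V2 the restricted UV cones were 0.579% of barcodes (0.382 to 0.841%), an interval that overlaps that of WT V3. They were 27 of 153 cones counted in this way, a larger share than in WT V3. The lowest opn1sw1 share of opsin UMIs inside the rule was 63.6% in P23H V3 and 60% in WT V3, and the highest outside it was 50% and 57.1%. Between 60% and 80% lay 2 P23H and 53 WT members, and 95 of the 239 WT members but 3 of the 38 P23H members had only 5 to 9 opsin UMIs. Because members below the purple group were more frequent in WT, results are given for all members and, where they differ, for the restricted UV cones.

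The rule fixed opn1sw1, so its level is a description: it was 33470 CPM in P23H V3 and 45073 CPM in WT V3, and 41073 and 66949 CPM in the restricted UV cones. The factor tbx2b, which the rule did not use, had 8 UMIs in P23H and 35 in WT UV cones. That is 79.0 CPM in P23H UV cones and 69.4 CPM in WT UV cones, against 4.60 and 3.71 CPM in P23H green and red cones and 52.9, 13.9 and 9.66 CPM in WT blue, green and red cones. UV cones were thus highest in both libraries, with WT blue cones next (log2 difference 1.95, SE 0.36, edgeR quasi-likelihood test, Benjamini-Hochberg adjusted p = 5.58e-05). The T-box gene tbx2a, also set as a UV cone marker, had 1 UMI in P23H V3 and 0 in WT V3 UV cones, and so gave no support. The proteoglycan gene kera, a further UV cone marker, went the other way in WT, with 651 CPM in UV cones against 2033 CPM in blue cones.

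To ask which genes set UV cones apart from the other cones, UMIs were summed per library and cone type, and UV cones were set against the mean of the blue, green and red cones, with the library as a block. The 7 sums leave 2 residual degrees of freedom, and a library of 3 pooled fish is the replicate. The edgeR fit shares dispersion across genes, so its small p-values do not rest on the spread between these pools alone. The 2 libraries also differ in genotype. Each SE is the absolute log2 difference over the square root of the F statistic. Of 7404 genes tested, 359 (4.85%) passed an adjusted p of 0.05, with 223 (3.01%) higher and 136 (1.84%) lower in UV cones. Without the genes of the rule, 348 remained. In 295 of the 359 the difference had the same sign, in both libraries, against each other cone type found there. P23H V3 had no blue cones, so the blue cone part of the contrast rests on WT V3 alone. In the restricted cones, where the other cone types were held to the 3% limit alone, 338 kept their sign. Of the 359, 172 (92 higher, 80 lower) passed there too.

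Phototransduction genes, the machinery of the light response, had 7 of 23 tested higher and 4 lower in UV cones, against 3.01% and 1.84% of all genes. The opsin kinase gene grk7b, which helps switch opsin off, was the most distinct. It was at 276 CPM in P23H UV cones and 286 CPM in WT UV cones, against 2.30 and 1.85 CPM in P23H green and red cones and 67.3, 10.9 and 9.66 CPM in WT blue, green and red cones (log2 difference 4.11, SE 0.28, adjusted p = 6.31e-21, edgeR). In P23H V2 it was at 289 CPM in UV cones and at 0 in green and red cones. The cyclase activator gene guca1e was at 336 CPM in P23H and 125 CPM in WT UV cones, against 139 CPM in WT blue cones and at most 73.6 CPM in green and red cones (log2 1.41). It therefore separated UV and blue cones from the rest. The other members higher were gnb1a, gnb1b, gnb3a, pdca and rgs9bp, of which gnb1a also passed in the restricted cones. There a single cell held 80% of the gnb1a UMIs of P23H V3 UV cones. In rods gnb1 is the transducin beta subunit and pdc is phosducin, which binds it, and rod markers moved with these genes: 6 of 7 rod markers tested were higher in UV cones.

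The rod marker rho illustrates this. It was at 6220 CPM in P23H UV cones and 7067 CPM in WT UV cones, against 616 and 356 CPM in P23H green and red cones and 1876, 4886 and 4442 CPM in WT blue, green and red cones. In P23H V3, 406 of the 630 rho UMIs of UV cones lay in 1 barcode, which also had 262 opn1sw1 UMIs. Without it rho was at 2362 CPM in P23H UV cones. Another restricted UV cone held 158 of the rho UMIs left, and the median P23H V3 member had 1. In the restricted cones the rod markers without gnat1 summed to 3751 CPM in WT UV cones. WT blue, green and red cones were at 2117, 4408 and 3423 CPM, so UV cones were not the highest there. In P23H the restricted sums were 10141 CPM in UV, 764 CPM in green and 451 CPM in red cones. Bipolar markers also moved, with 6 of 6 higher in all members and 0 of 6 past the threshold in the restricted cones. Their part in the difference between UV cones and other cones was not tested beyond the restricted set.

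The 4 lower members were cnga3a, cngb3.1, slc24a2 and rcvrn3. The channel subunit gene cnga3a was at 168 CPM in P23H UV cones and 448 CPM in WT UV cones, against 507 and 375 CPM in P23H green and red cones and 735, 580 and 545 CPM in WT blue, green and red cones (log2 -1.04, SE 0.25, adjusted p = 0.00332, edgeR). The exchanger gene slc24a2, which carries calcium out of the cone, differed by a log2 of -0.83 and the recoverin gene rcvrn3, a calcium sensor, by -1.05. For rcvrn3 the WT values were 571 CPM in UV and 502 CPM in blue cones against 2691 CPM in green and 2239 CPM in red cones, so that UV and blue cones were alike in level and low. The partner channel gene cngb3.1 also passed (log2 -3.00), but it had 0 UMIs in all P23H cones, so this rests on WT, at 9.92 CPM in UV cones and 50.5 to 96.9 CPM in the other cones. In the restricted cones rcvrn3 and cngb3.1 still passed, and cnga3a and slc24a2 did not.

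Outer segment genes had 2 of 23 higher and 3 lower, against 3.01% and 1.84% of all genes. The photoreceptor protein gene tulp1b was at 39.5 CPM in P23H UV cones and 45.6 CPM in WT UV cones, against 175 and 188 CPM in P23H green and red cones and 178, 260 and 286 CPM in WT blue, green and red cones (log2 -2.54, SE 0.33, adjusted p = 1.18e-08, edgeR). In P23H V2 this order did not hold, with 165 CPM in UV cones, from 4 UMIs, against 111 and 42.4 CPM in green and red cones. The axonemal gene rp1l1b was at 1659 CPM in P23H and 796 CPM in WT UV cones, below every other cone type of its library (log2 -1.62), and rp1l1a had a log2 of -0.98. The 2 higher members, rom1a and rom1b, are also rod markers. Of 15 cone transcription factors, tbx2b alone was higher and samd7, a photoreceptor repressor in mice, alone was lower.

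Single members of the metabolic and stress lists stood out rather than whole lists. The shares over all genes were 3.01% higher and 1.84% lower. The glutathione peroxidase gene gpx1b, which detoxifies peroxides, was the 1 of 36 oxidative stress genes that was higher. It was at 1511 CPM in P23H UV cones and 214 CPM in WT UV cones, against 52.9 and 33.4 CPM in P23H green and red cones and 52.9, 13.9 and 19.3 CPM in WT blue, green and red cones (log2 3.43, SE 0.25, adjusted p = 1.11e-19, edgeR). The factor xbp1, a regulator of the unfolded protein response, was the 1 higher of 23 genes of that response. It was at 731 CPM in P23H UV cones and 625 CPM in WT UV cones, against 151 to 316 CPM in all other cone sums (log2 1.30, adjusted p = 7.99e-06, edgeR). The mitochondrial creatine kinase gene ckmt2b was at 800 and 647 CPM in P23H and WT UV cones, with WT blue cones at 608 CPM and green and red cones at 69.3 to 276 CPM (log2 1.29). The enolase gene eno1a, of glycolysis, was at 118 CPM in P23H and 186 CPM in WT UV cones against at most 89.3 CPM elsewhere (log2 1.40). All 4 passed in the restricted cones too.

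The other lists were read against the 3.01% higher and 1.84% lower of all genes. Glycolysis had 2 of 26 higher, the TCA cycle 2 of 26 lower (got1 and got2a) and oxidative phosphorylation 2 of 70 lower (cox4i2 and ndufs8b). Ribosomal proteins had 0 of 75 and proteasome subunits 0 of 35 past the threshold. Circadian genes had 2 of 31 higher and 1 lower, the melatonin synthesis gene aanat2. Immediate early genes had 3 of 21 higher, of which egr4 was also called in the restricted cones. There a single cell held 47.1% of the egr4 UMIs of P23H V3 UV cones, and another 51.6% of those in WT V3. Synapse genes had 7 of 26 higher, but only syt5b of them passed in the restricted cones, and there it had 0 UMIs in P23H. Heat shock genes had 3 of 28 higher, the hsp70.1, hsp70.3 and dnajb1b genes, none of which passed in the restricted cones, and 1 lower, the co-chaperone gene bag3, which passed in both. Median log2 differences ran from -0.30 for the outer segment list to 0.77 for the immediate early list, against -0.01 for all genes tested.

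The genes with the largest difference were mostly low in level. Highest was the claudin gene cldn11a with 10 UMIs in P23H and 21 in WT UV cones, 98.7 CPM in P23H and 41.7 CPM in WT UV cones against at most 2.41 CPM in any other cone sum (log2 6.63, SE 0.96, adjusted p = 2.56e-07, edgeR). Next by the log2 difference came LOC101882255, the calcium-binding gene s100z, the receptor phosphatase gene ptprfa, the protocadherin gene pcdh1b, dhrs7cb, the parvalbumin gene pvalb8, si:ch211-160o17.6, vsx1, olfm1a, grk7b, ppp1r1b, neurod4, the active zone gene rims1a and net1. For pvalb8, 17 of the 23 WT UMIs lay in 1 barcode, and P23H had 3 UMIs, of which 0 were in restricted UV cones. Of these genes, s100z was at 326 CPM in P23H UV cones but 5.95 CPM in WT UV cones. The bipolar cell factor vsx1 did not keep its sign in the restricted cones, and ppp1r1b, neurod4, rims1a and net1 did not pass there.

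At the other end, the transcriptional cofactor gene eya2 and the hypoxia factor gene epas1b had 0 UMIs in the UV cones of every library. A floor of 3 UMIs is 29.6 CPM in P23H V3 and 5.95 CPM in WT V3 UV cones. Against it, eya2 was at 54.7 CPM in P23H red cones and 16.8, 13.9 and 22.4 CPM in WT blue, green and red cones. Then followed impg1b, a proteoglycan of the matrix around photoreceptors, LOC100334706, si:ch211-98n17.5, smtnb, LOC100535731, LOC103910147, sox6, the fatty acid oxidation gene acadvl, LOC101886358, bglapl, wdr47b, tulp1b and ggt5a. In P23H UV cones 10 of these 13 had 0 UMIs, the exceptions being impg1b, sox6 and tulp1b. The clearest was bglapl, an osteocalcin-like gene, with 0 and 21 UMIs in P23H and WT UV cones, or 0 and 41.7 CPM, against 117 and 105 CPM in P23H green and red cones and 111, 256 and 254 CPM in WT blue, green and red cones (log2 -2.59, SE 0.37).

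More abundant genes separated UV cones as clearly. These were chosen for description after their values had been seen. The gene si:ch73-28h20.1, which RefSeq gives as a synonym of ly6pge, was at 1994 CPM in P23H UV cones and 3440 CPM in WT UV cones, against 242 to 745 CPM in the other cone sums (log2 2.34). The long noncoding gene si:dkey-16p21.8 was at 1777 CPM in P23H UV cones and 2272 CPM in WT UV cones, against 158 to 252 CPM in the others (log2 2.95). The ephrin gene efna1b, a cell surface ligand, was at 1165 and 2099 CPM in P23H and WT UV cones, against 115 to 550 CPM in the others (log2 2.23). All 3 were higher in P23H V2 UV cones as well, at 867, 1074 and 1115 CPM against at most 212, 683 and 221 CPM in V2 green and red cones.

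A group of adhesion, signalling and regulator genes, also chosen after their values had been seen, was shared with blue cones to different extents. The adhesion gene chl1a was at 592 CPM in P23H UV cones and 268 CPM in WT UV cones, against 5.75 and 3.24 CPM in P23H green and red cones and 183, 16.8 and 12.1 CPM in WT blue, green and red cones (log2 3.57). The netrin-G gene ntng2b was at 257 and 308 CPM in P23H and WT UV cones, 113 CPM in WT blue cones, and 14.9 and 4.17 CPM in P23H green and red cones (log2 3.24). The corepressor gene skor1a was at 98.7 and 141 CPM in P23H and WT UV cones and 98.5 CPM in WT blue cones, against at most 4.83 CPM elsewhere (log2 3.75). The growth factor gene tgfa, a ligand of the EGF receptor, was at 188 and 121 CPM in P23H and WT UV cones and 26.4 CPM in WT blue cones, against at most 9.89 CPM elsewhere (log2 3.34). The retinal homeobox gene rx1 was at 770 and 702 CPM in P23H and WT UV cones, against at most 416 CPM elsewhere (log2 1.34). Adjusted p-values of these 5 genes in the edgeR quasi-likelihood test with Benjamini-Hochberg adjustment lay between 9.49e-19 for chl1a and 6.13e-06 for rx1.

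**Figure D2:**
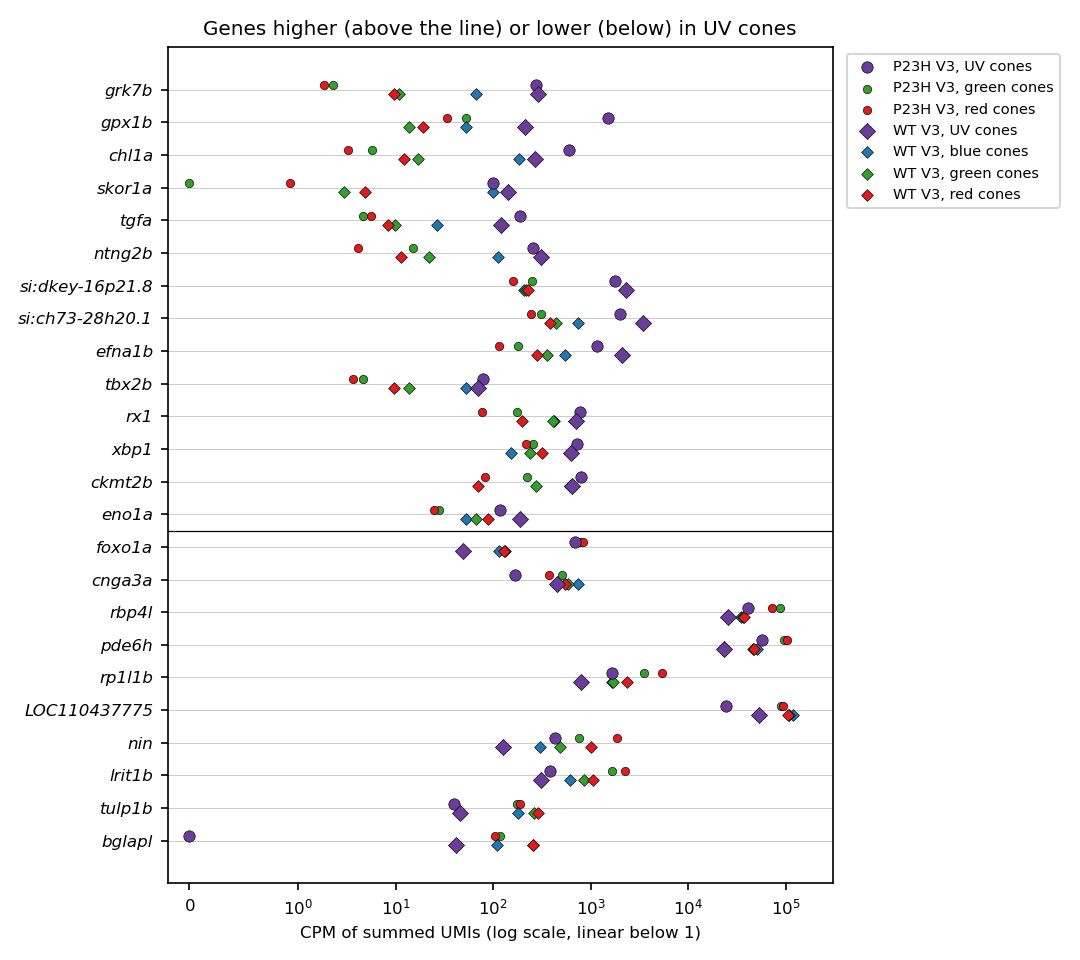
CPM of summed UMIs (x axis, log scale, linear below 1) of 24 genes in the cone types of P23H V3 (circles) and WT V3 (diamonds), with UV cones in purple. In both libraries the purple symbol is the rightmost of its library for the 14 genes above the line, such as grk7b at 276 and 286 CPM, and the leftmost for the 10 below it, such as tulp1b at 39.5 and 45.6 CPM.

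Several of the most abundant cone transcripts took a smaller share of UV cone UMIs. Of the genes described next, LOC110437775, pde6h, nin, lrit1b and opn4.1 were picked with their values in view. The unnamed protein-coding gene LOC110437775 was at 24406 CPM in P23H UV cones and 52460 CPM in WT UV cones, against 88529 and 94113 CPM in P23H green and red cones and 117680, 106470 and 104930 CPM in WT blue, green and red cones (log2 -1.77, adjusted p = 5.88e-05, edgeR). In the restricted UV cones it was at 11252 CPM in P23H and 41875 CPM in WT. The gene pde6h, the inhibitory subunit of cone phosphodiesterase, was at 56138 CPM in P23H UV cones and 23348 CPM in WT UV cones, against 95026 and 102050 CPM in P23H green and red cones and 50255, 45885 and 46887 CPM in WT blue, green and red cones (log2 -1.32). The retinol-binding gene rbp4l differed by a log2 of -1.03. The centrosomal gene nin (log2 -1.99), the photoreceptor synapse gene lrit1b (385 CPM in P23H and 308 CPM in WT UV cones) and the forkhead gene foxo1a (log2 -1.12) were also below every other cone type of the same library. The melanopsin gene opn4.1 had a log2 of -1.58, at 109 CPM in P23H and 51.6 CPM in WT UV cones, where WT blue cones were lower at 45.7 CPM. In the restricted UV cones it was at 0 CPM in P23H and 24.5 CPM in WT, against 345 and 490 CPM in P23H green and red cones and 45.7, 204 and 238 CPM in WT blue, green and red cones.

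UV cones of P23H and WT were compared from the 38 P23H V3 and 239 WT V3 cells, with P23H V2 beside them. In P23H V2 UV cones a floor of 3 UMIs is 124 CPM, so V2 levels near it rest on few UMIs. A gene was called past the fold where the ratio was at least 1.5, the exact Poisson intervals did not overlap, and the library with the higher level had at least 50 UMIs. Of 739 genes that could pass, 191 (25.8%) did, with 60 (8.12%) higher and 131 (17.7%) lower in P23H. This split is uneven by construction, since 50 UMIs are 494 CPM in P23H V3 and 99.2 CPM in WT V3. With the same minimum level in both libraries, 77 of 277 genes passed, 36 higher and 41 lower. With TMM factors in place of total UMIs, which shift all ratios by a log2 of -0.41, 36 were higher and 304 lower. The median log2 ratio of the 739 genes was -0.36 in UV cones, and that of the same genes was -0.37 in green and -0.38 in red cones. In the restricted UV cones 133 of 466 genes passed (28.5%), 38 higher (8.15%) and 95 lower (20.4%). With 1 library per condition, a ratio compares these libraries, and transgene, pool of fish and preparation cannot be told apart.

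Phototransduction and calcium feedback genes gave 5 of 14 higher and 2 lower in P23H, against 8.12% and 17.7% of all genes. The transducin gamma gene gngt2a was at 4788 CPM in P23H V3 (4372 to 5234), 1734 CPM in P23H V2 and 383 CPM in WT V3 (331 to 441) UV cones, a log2 ratio of 3.64 (counting interval 3.40 to 3.89). In green cones it was at 2349 CPM in P23H V3 and 1648 CPM in WT V3, and in red cones at 3828 and 2228 CPM. WT UV and blue cones were thus low for gngt2a, at 383 and 408 CPM, and P23H V3 UV cones were above P23H V3 green and red cones. In P23H V2, at 1734 CPM in UV cones against 756 CPM in green and 2099 CPM in red cones, they were not above red cones. The calcium sensor rcvrn3 followed the same pattern in part, at 3653 CPM in P23H V3, 3056 CPM in P23H V2 and 571 CPM in WT V3 UV cones, with log2 ratios of 2.68 in UV, 1.02 in green and 1.47 in red cones.

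The phosphodiesterase subunit gene pde6h was at 56138 CPM in P23H V3, 52773 CPM in P23H V2 and 23348 CPM in WT V3 UV cones (log2 1.27), beside log2 ratios of 1.05 in green and 1.12 in red cones. The cyclase activator gene guca1c was at 10456, 6070 and 4732 CPM in P23H V3, P23H V2 and WT V3 UV cones. The cyclase gene gc3 was at 1264, 1776 and 563 CPM in the same order of libraries. Both P23H libraries lay above WT for these 3 genes. The exchanger gene slc24a2 was at 997 CPM in P23H V3 and 508 CPM in WT V3, but at 372 CPM in P23H V2. Lower were cnga3a, at 168 CPM in P23H V3, 124 CPM in P23H V2 and 448 CPM in WT V3, and the opsin kinase gene grk1b, at 504, 537 and 893 CPM. The log2 ratio of cnga3a was -1.42 in UV cones, -0.19 in green and -0.54 in red cones, and neither of the other types was past the fold. Whether the ratios differ between cone types was not tested.

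Genes higher in UV cones than in other cones had ratios in both directions. The opsin kinase gene grk7b was at 276 CPM in P23H V3, 289 CPM in P23H V2 and 286 CPM in WT V3 UV cones (log2 -0.05, counting interval -0.69 to 0.54). For tbx2b the log2 ratio was 0.19 (-1.13 to 1.32), for xbp1 0.23 (-0.16 to 0.59) and for rx1 0.13 (-0.24 to 0.49). None of these intervals excludes a ratio of 1, and that of tbx2b also includes a 2-fold change either way. Lower in P23H were si:ch73-28h20.1, at 1994 CPM in P23H V3, 867 CPM in P23H V2 and 3440 CPM in WT V3 (log2 -0.79), and efna1b, at 1165, 1115 and 2099 CPM (log2 -0.85, not past the fold in the restricted UV cones). Both were named after their values had been seen. Higher was gpx1b, at 1511 CPM in P23H V3 (1281 to 1770), 619 CPM in P23H V2 (347 to 1022) and 214 CPM in WT V3 (176 to 259), a log2 ratio of 2.82. It was found in 27 of 38 P23H and 50 of 239 WT cells, with no P23H cell holding more than 13.1% of its UMIs. These cells differ in depth, with medians of 2302 UMIs in P23H V3 and 1072 UMIs in WT V3. Among restricted UV cones it was found in 24 of 26 P23H and 42 of 87 WT cells, with 149 and 100 UMIs. In green and red cones gpx1b stayed low in both libraries, at 52.9 and 33.4 CPM in P23H against 13.9 and 19.3 CPM in WT. The adhesion gene chl1a was at 592 CPM in P23H V3 and 268 CPM in WT V3, but at 165 CPM in P23H V2.

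Metabolic regulators were among the 3 highest ratios. The forkhead factor gene foxo1a, which acts in insulin signalling, had 70 UMIs in P23H V3 and 25 in WT V3 UV cones. Its level was 691 CPM in P23H V3, 289 CPM in P23H V2 and 49.6 CPM in WT V3 (log2 3.80, counting interval 3.12 to 4.52), and the ratios in green and red cones were 2.55 and 2.70. The gene pfkfb4b, which makes an activator of glycolysis, was at 612 CPM in P23H V3, 248 CPM in P23H V2 and 69.4 CPM in WT V3 (log2 3.14), beside 2.80 in green and 2.50 in red cones. Both were higher in every cone type compared. The mitochondrial carrier gene slc25a22 was at 523, 372 and 99.2 CPM in P23H V3, P23H V2 and WT V3 UV cones (log2 2.40, with 1.18 in green and 0.28 in red cones). In glycolysis itself 1 of 13 genes was higher, pfkfb4b, and 1 lower, the enolase gene eno1b, against 8.12% and 17.7% of all genes. The level of eno1b was 355 CPM in P23H V3, 82.6 CPM in P23H V2, which is under the 3 UMI floor, and 811 CPM in WT V3. Of the sodium pump and energy buffer genes, 1 of 8 was higher, against the same 8.12%. It was the pump subunit gene atp1a3b, at 3712, 2725 and 1722 CPM in the same order of libraries.

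Nuclear genes of oxidative phosphorylation were lower or not past the fold, with 0 of 57 higher and 15 lower, against 8.12% and 17.7% of all genes. Their summed level was 45248 CPM in P23H V3 and 57831 CPM in WT V3 UV cones, but 54218 CPM in P23H V2. The median log2 ratio of the 57 genes was -0.36, equal to that of all genes. In the restricted UV cones 0 of 54 were higher and 21 lower, against 8.15% and 20.4% of all genes, with a median of -0.54 against -0.38 for all genes. The lowest ratio past the fold, with 0 UMIs set to a floor of 3, was that of atp5ia, a subunit gene of the mitochondrial ATP synthase. It had 2 UMIs in P23H V3, 0 in P23H V2 and 463 in WT V3, or 19.7 CPM in P23H V3 and 919 CPM in WT V3 (log2 -5.54, counting interval -8.59 to -3.68). It was as low in P23H green and red cones, at 40.2 and 36.1 CPM against 809 and 1011 CPM in WT. Its paralog atp5ib, summed over 3 rows of that name, was at 474 CPM in P23H V3 and 992 CPM in WT V3 UV cones (log2 -1.07), but the row without a number alone gave 1.71. How reads were assigned among these copies was not tested, so the values of both genes are uncertain. Ribosomal proteins had 0 of 61 higher and 8 lower, with a median of -0.19.

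**Figure D3:**
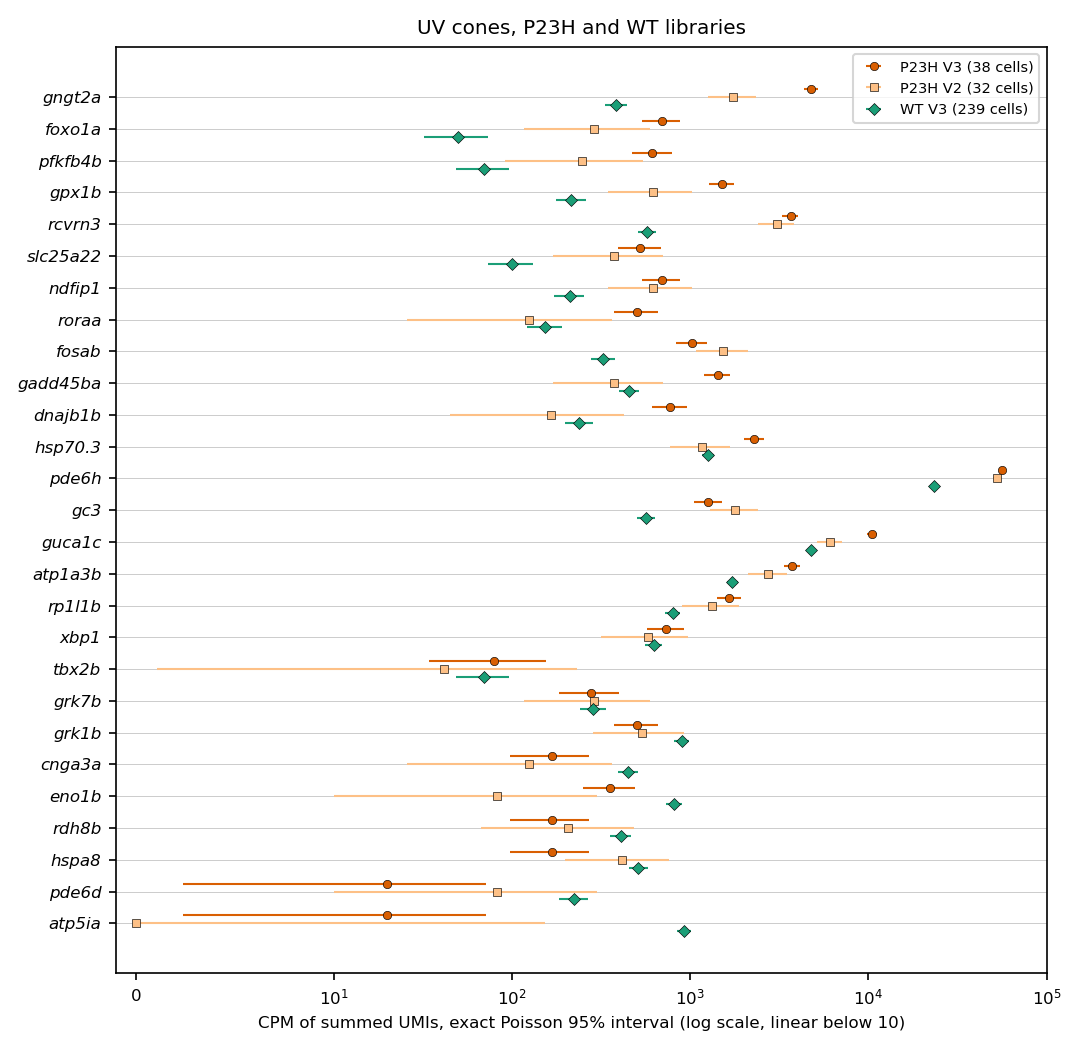
CPM of summed UMIs (x axis, log scale, linear below 10) of 27 genes in the UV cones of P23H V3 (dark orange), P23H V2 (light orange) and WT V3 (green), with exact Poisson 95% intervals. The P23H V3 and WT V3 intervals are apart for genes such as gngt2a (4788 and 383 CPM) and atp5ia (19.7 and 919 CPM) and overlap for xbp1, tbx2b and grk7b.

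Stress and immediate early genes gave mixed ratios, and their counts stand against 8.12% higher and 17.7% lower of all genes. The immediate early list had 3 of 6 higher and 0 lower: fosab, jun and the survival gene mcl1a. The factor gene fosab was at 1017 CPM in P23H V3, 1528 CPM in P23H V2 and 323 CPM in WT V3, with 1 cell holding 32.0% of its P23H V3 UMIs. The gene jun was at 553, 867 and 331 CPM in P23H V3, P23H V2 and WT V3 UV cones, and mcl1a at 731, 165 and 371 CPM. The stress gene gadd45ba was at 1422 CPM in P23H V3 and 454 CPM in WT V3 UV cones, but at 372 CPM in P23H V2, and its ratios in green and red cones were -0.12 and 0.14. Of the 12 heat shock genes, dnajb1b, hsp70.3 and ubb were higher and hsp70l, hspa8 and hsp90aa1.2 lower. The constitutive chaperone gene hspa8 was at 168 CPM in P23H V3, 413 CPM in P23H V2 and 512 CPM in WT V3 UV cones, and had log2 ratios of -2.16 in green and -2.03 in red cones. For hsp70l the ratio was -0.64 in all members and 0.14 in the restricted UV cones. None of the 3 unfolded protein response genes that could pass did so.

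The circadian list had 2 of 5 higher, roraa and nfil3-6, and 1 lower, nfil3-5, against the same 8.12% and 17.7%. The receptor gene roraa was at 504 CPM in P23H V3 and 153 CPM in WT V3 UV cones, but at 124 CPM in P23H V2. The clock genes per2 and tefa had too few UMIs to pass. They were at 395 CPM and 237 CPM in P23H V3, 496 and 165 CPM in P23H V2, and 202 and 85.3 CPM in WT V3, with P23H V3 and WT V3 intervals that did not overlap. Of the 20 cone genes that the study named from these libraries, 18 were below the minimum in UV cones and 1, pfkfb4b, was higher. That list was chosen on the same samples and is not independent evidence.

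Retinoid cycle genes gave 6 of 7 lower and 1 higher, against 17.7% and 8.12% of all genes. The 1 higher was rbp4l, at 41171 CPM in P23H V3, 28327 CPM in P23H V2 and 25588 CPM in WT V3. Among the lower were rlbp1b, rgrb, rpe65a and rbp5. In the restricted UV cones only 2 genes of this list could pass, with 1 higher and 1 lower, against 8.15% and 20.4% of all genes. The median log2 ratio was -2.54 over the 7 genes in all members and -0.45 over those 2. Markers of the retinal pigment epithelium (RPE) summed to 98.7 CPM in P23H and 1119 CPM in WT members and to 110 and 231 CPM in the restricted UV cones. That sum was over rpe65a, dct, pmela, tyrp1b and rgrb. It thus holds rgrb and rpe65a themselves and is not separate evidence about them. The opsin-like gene rgrb, for example, was at 69.1 CPM in P23H V3 and 623 CPM in WT V3 members, and at 68.5 and 133 CPM in the restricted UV cones. The RPE genes tyrp1b and dct, which are part of that sum, were also lower in P23H members. In contrast rdh8b, a retinol dehydrogenase of photoreceptors, was at 168 CPM in P23H V3, 206 CPM in P23H V2 and 407 CPM in WT V3 members, and at 178 CPM in P23H V3 and 505 CPM in WT V3 restricted UV cones. In green and red cones its ratios were -0.29 and 0.35.

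Other genes at the ends of the ranking were often sparse. Further high ratios were those of si:ch211-176g13.7, ivns1abpa, si:ch211-5k11.8, ndfip1 and sagb. The ubiquitin ligase adaptor gene ndfip1 was at 691 CPM in P23H V3, 619 CPM in P23H V2 and 210 CPM in WT V3. For si:ch211-5k11.8, 1 cell held 78.5% of the P23H V3 UMIs. In these ratios 0 UMIs were set to a floor of 3, so a gene with 0 could rank behind a gene with 1. An example is fabp1a, with 0 UMIs in P23H V3 and 135 in WT V3, which was not among the 15 lowest. At the low end, fabp11b, ctsd, ambp, mb, pttg1ipb, tyrp1b, LOC100536923, apoc1, faub, rpl9, marcksl1a and rogdi had 1 UMI each in P23H V3 and 51 to 127 UMIs in WT V3. In the restricted UV cones 11 of these 12 were under the 50 UMI minimum and could not pass. Some kept a wide gap there, such as LOC100536923 with 1 UMI in P23H and 49 in WT and faub with 0 and 40. The one that could pass, apoc1, did, but 85.5% of its WT UMIs lay in 1 cell. The gene pde6d, which carries lipid-modified proteins to the outer segment, had 2 UMIs in P23H V3 (19.7 CPM), 82.6 CPM in P23H V2 and 222 CPM in WT V3, and was also lower in the restricted UV cones and in green and red cones. Of the 191 genes, 129 could pass in the restricted UV cones, of which 126 kept their sign and 99 passed (30 higher, 69 lower).

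**Figure D4:**
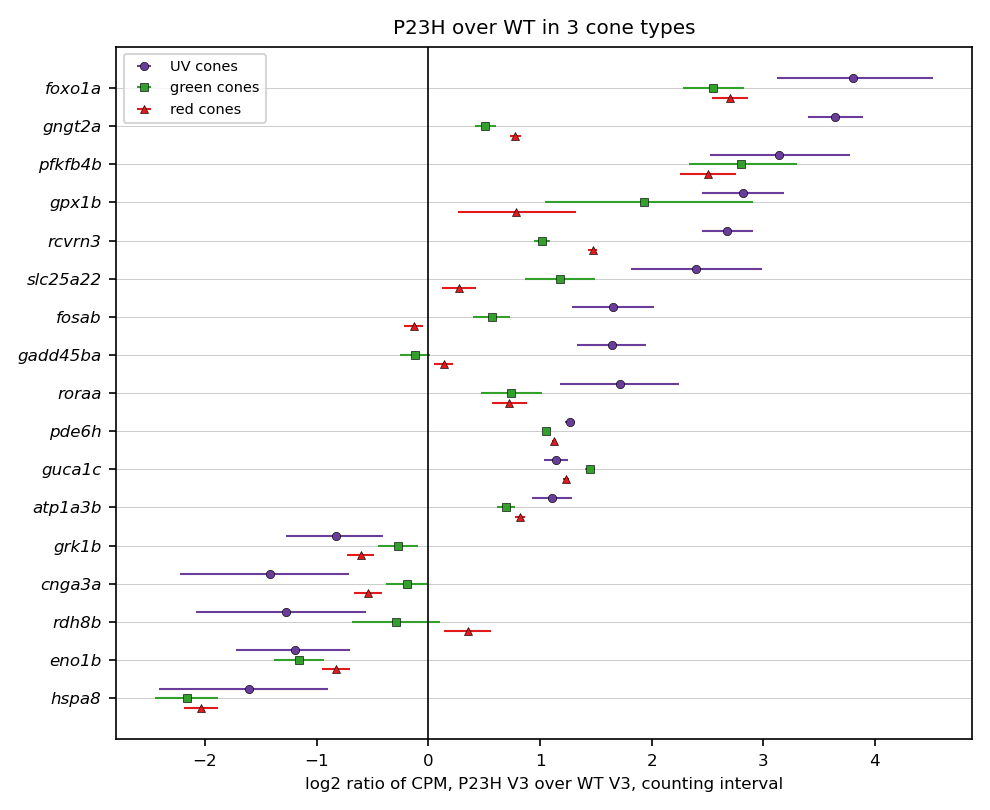
Log2 ratio of CPM in P23H V3 over WT V3 (x axis) for 17 genes in UV cones (purple), green cones and red cones, with counting intervals. The ratio of gngt2a is 3.64 in UV cones against 0.51 in green and 0.78 in red cones, while pde6h lies at 1.27, 1.05 and 1.12.

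The members chosen by the rule varied among themselves most in abundant genes and in genes of other cells. This was taken over all members and not over the restricted UV cones, and the measure was not corrected for a gene's level. Cells were thinned to 500 UMIs each, which kept all 38 P23H and 239 WT members, and the variance over the mean (Fano factor, about 1 for random counting) was taken over cells. The median of 960 genes was 0.973 in P23H V3 and 1.09 in WT V3. Ranked by the lower of the values in P23H V3 and WT V3, the first were LOC110437775 (20.9 in P23H V3 and 19.4 in WT V3), cabp5a (42.8 and 19.4) and rbp4l (16.9 and 14.9). After these came gngt2b and opn1sw1, which the rule used, mdka, es1, pde6h, rs1a and hsp70.1. The genes cabp5a and rs1a mark bipolar cells and mdka horizontal cells. Some P23H V3 values rest largely on 1 cell. Unthinned, the highest cell there held 66 of 69 mdka, 59 of 87 rs1a and 953 of 2472 LOC110437775 UMIs. In WT V3 it held 55 of 168, 37 of 469 and 1059 of 26441. Before thinning, members with cone genes under 3% held 383 of the 430 cabp5a UMIs in P23H V3 and 1120 of 1265 in WT V3. A single P23H V3 cell held 162 of the 430, and a single WT V3 cell 175 of the 1265. How far the spread of cabp5a lay between or within kinds of member was not tested. A UMI of cabp5a was left in 31.6% of thinned P23H cells and 42.7% of thinned WT cells, whereas LOC110437775 was left in all of them.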

How the data were processed

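Retinas with patches of RPE were dissociated with papain, and libraries were made with the 10x 3′ chemistry. By the submitters' processing notes the authors used Cell Ranger 3.1.2.0 and GRCz11, and they deposited raw UMI counts per feature and barcode, whole numbers without normalization. Deposited counts of a gene's numbered rows were summed here. Doublets were not called. Members and gene lists were chosen with earlier results of these data known.

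UV cones were compared with the other cones in edgeR 4.0.16 (R 4.3.3) by glmQLFit and glmQLFTest on summed counts, with library and cone type as terms, TMM factors and filterByExpr. DESeq2 1.42.0 was an alternative. The reported adjusted p-values are Benjamini-Hochberg values over 7404 genes. P23H and WT were compared as CPM with exact Poisson 95% intervals and no test. Shares have Clopper-Pearson intervals. Genes named were those of the lists, the 15 highest and 15 lowest P23H ratios past the fold, and the 10 highest Fano factors, taking the lower of both libraries. Also named were the 15 highest and 15 lowest log2 differences between UV and other cones. These were among called genes with the same sign, in both libraries, against every other cone type found there (rule genes left out). Genes named outside these are said to be so. Restricted UV cones were defined after seeing the data. Both calculations were run on simulated counts with known changes. The simulations held no mixed members, and that of the ratio held no spread between pools of fish. They therefore check the arithmetic and not the calls made here. Counting and intervals were done in pandas 2.3.3 and scipy 1.17.1 under python 3.11.15, and plots in matplotlib 3.10.9.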

Additional observations from a re-analysis of the deposited data

Results flagged for a closer look

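The rod arrestin gene sagb had opposite directions in the cone types. Its log2 ratio of P23H V3 over WT V3 was 1.95 in UV cones, against -0.78 in green and -1.37 in red cones, a difference that was not tested. In UV cones it was at 642 CPM in P23H V3, 289 CPM in P23H V2 and 167 CPM in WT V3, and 86.2% of the P23H V3 UMIs of sagb lay in 1 barcode, the one with 406 rho UMIs. Without that barcode 9 sagb UMIs were left, or 94.9 CPM (43.4 to 180 CPM), and the log2 ratio was -0.81.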

How the results depend on the processing

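No paired analysis was possible because P23H had 1 library of each chemistry and WT had V3 alone. Free RNA was not subtracted by scaling to rho. Summed rho was higher in P23H UV cones (6220 CPM, or 2362 CPM without the rod-rich barcode) than in the barcodes outside cones and rods (2161 CPM), so this alternative was not run. Much of that P23H sum lay in barcodes with 406 and 158 of the 630 rho UMIs, and the median member had 1. In WT summed rho was lower in UV cones, at 7067 against 8462 CPM. Of all cones UV cones were 5.71% in P23H V3 and 16.1% in WT V3. Of restricted cones they were 4.30% and 8.88%, with the opn1sw1 limit on UV cones alone. Among barcodes the share was 0.167% in P23H V3 and 0.625% in WT V3 for the restricted UV cones. It was 0.686% with P23H V2 in place of P23H V3. In WT V3 it was 1.34% with opn1sw1 at 80% or more of opsin UMIs and 1.48% with at least 500 genes. The order of P23H below WT held in V3 under each of these and turned with P23H V2 over all cones, where the share was 19.4%. Of the genes UV cones against other cones, 210 were called by DESeq2, 120 of 2453 after thinning to 500 UMIs (fewer genes tested) and 219 in the restricted cones, against 359, and the other alternatives gave 262 to 479. Within one library, 340 to 359 of the 359 kept their sign. These genes had been called from the same libraries, so that count is no independent support. An unadjusted p under 0.05 was reached by 1101 genes. In the restricted cones vsx1 turned to -0.48 (-2.85 without blue cones) and cabp5a to -0.26 (-0.61 without blue cones, -0.11 with P23H V2). There hsp70.3 was at -0.073 (-0.74 without blue cones), and without blue cones hsp70.1 was at -0.76 and dnajb1b at -0.23 (hsp70.1 at -0.043 in all members). The value of cngb3.1 was 0.34 in DESeq2, 0 in P23H V3 alone and -2.76 in WT V3 alone, and that of samd7 was 0.28 after thinning.

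Of the genes of P23H against WT, 340 were past the fold with TMM factors (276 in the restricted UV cones), 296 with a minimum of 20 UMIs, 127 at a fold of 2, 119 with P23H V2 (50 shared with the 191), 77 with an equal minimum level and 65 with that in the restricted UV cones, against 191. With P23H V2 the log2 ratio turned for roraa (-0.30), dnajb1b (-0.53), gadd45ba (-0.29), rogdi (0.29), slc24a2 (-0.45), hsp70.3 (-0.12), mcl1a (-1.17) and chl1a (-0.70), and rogdi had 0 UMIs there. Without summing rows atp5ib was at 1.71. For hsp70l it was 0.14 in the restricted UV cones and 0.21 in these without the rod-rich barcode, and for sagb -0.81 in all members without that barcode. These causes were not tested. The restricted set, the analyses without blue cones, with an equal minimum level and without the rod-rich barcode were chosen after seeing the data. Depth limits P23H UV cones more than WT, with 3 UMIs at 29.6 CPM in P23H V3, 124 CPM in P23H V2 and 5.95 CPM in WT V3.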
